A study of Mus musculus with 10 samples.

Results

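Ribosomal protein genes encode the protein parts of the ribosome, the machine that reads messenger RNA and builds proteins. They fall into a cytosolic class, with symbols that start with Rpl (large subunit) or Rps (small subunit), and a mitochondrial class, Mrpl and Mrps, whose products are made in the cytosol and imported to translate the few messages of the mitochondrial genome. Chromatin accessibility at these genes was measured in adipocytes by ATAC-seq, in which a transposase inserts sequencing adapters into open DNA. The members were the peaks within 1 kb of either RefSeq bound of a protein-coding autosomal gene of those symbols, without the Rps6k kinases. They numbered 186 of the 122984 peaks in the deposited count table, 93 in each class, and no peak lay near genes of both classes. Of 83 cytosolic genes 75 had such a peak, and of 78 mitochondrial genes 75 had one. This was 90.4% and 96.2%, against 64.9% of all 20661 autosomal protein-coding genes. The genes without one were Rpl10l, Rpl17, Rpl31-ps12, Rpl32l, Rpl37rt, Rpl39l, Rps2 and Rps27rt in the cytosolic class, and Mrpl24, Mrpl4 and Mrps23 in the mitochondrial class. The symbol rule also takes in a few genes that are copies of, or named after, ribosomal protein genes, such as Rps19bp1, which encodes a binding partner of Rps19, and Rps23rg1.

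The study used MAP cells, an immortalized line of mouse adipocyte progenitors, turned into adipocytes. Every group, controls included, had been given insulin, 500 µM isobutylmethylxanthine, 1 µM dexamethasone and 1 µM rosiglitazone for 2 days, then insulin and rosiglitazone. At day 7 to 8 the adipocytes were left as controls (Control, libraries S1 and S2), given forskolin for 4 hours (FSK4h, S3 and S4), 1 day (FSK1D, S5 and S6) or 3 days (FSK3D, S7 and S8), or given rosiglitazone for 3 days (Rosi3D, S9 and S10). Nuclei were sorted on a DNA dye and 10000 went into each library. Forskolin switches on adenylyl cyclase, which makes cAMP, the signal through which adrenergic hormones act on fat cells, and rosiglitazone binds and activates PPARγ, the nuclear receptor that drives fat cell formation. The forskolin dose is not in the labels. All cells come from 1 line, and nothing says that paired libraries were grown apart, so p-values measure the spread between these libraries, which may be technical.

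Each library held between 10410233 and 18935287 counts in peaks, and every member peak had counts in every library, from 3 to 2108. All 186 passed the filter on low counts. The adipocyte label was checked at gene ends: 8 of 8 adipocyte markers had a peak there, with a summed level of 388 to 435 CPM (counts scaled to the same library total) in the controls. Of the other marker lists, adipose progenitor genes had one for 4 of 6 (67.1 to 70.2 CPM, none at Dlk1 or Dpp4), macrophage genes for 3 of 6 (22.2 to 22.3 CPM, none at Adgre1, Ptprc or Itgam) and endothelial genes for 2 of 4 (7.88 to 11.5 CPM, none at Pecam1 or Cdh5). In that order the 4 lists had 12, 6, 4 and 2 tested peaks, so the sums cover unlike numbers of peaks. The summed adipocyte level was 318 to 335 CPM after 1 day of forskolin and 465 to 477 CPM with rosiglitazone. The progenitor level was 75.4 to 81.8 and 51.0 to 57.3 CPM in the same groups, and the macrophage level was 23.0 to 29.7 CPM over the treated libraries. The part of cell makeup in the results was not tested.

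The promoters of these genes are known for compact, GC-rich starts, and cytosolic ribosomal protein messages typically begin with a C followed by a run of pyrimidines, the TOP sequence through which mTOR signalling sets their translation. RefSeq (GRCm38.p6) gave windows of 250 bases before to 50 bases after an annotated start for 63 cytosolic and 69 mitochondrial genes. The runs below cover the last 100 bases before the start and the first 15 of the transcript, on the gene's strand, for the start peaks that fell with the smallest adjusted p after 1 day of forskolin, 4 in each class. All 8 runs lie inside the peak in question. Capitals mark matches to the searched letters CCGGAAG (ETS family), AAGATGGC (YY1), GCATGCGC (NRF1), GGGCGG (SP family), TGACGT (the core of the cAMP response element) and CACGTG (E-box) on either strand, or a pyrimidine run at the start.
Rpl27 (chr11:101442145-101442259, plus strand): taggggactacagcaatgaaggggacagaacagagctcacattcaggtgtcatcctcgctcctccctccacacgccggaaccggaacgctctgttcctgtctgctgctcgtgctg
Rpl23 (chr11:97782425-97782539, minus strand): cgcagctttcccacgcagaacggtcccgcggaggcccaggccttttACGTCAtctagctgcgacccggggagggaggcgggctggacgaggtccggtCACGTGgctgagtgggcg
Rpl5 (chr5:107900428-107900542, plus strand): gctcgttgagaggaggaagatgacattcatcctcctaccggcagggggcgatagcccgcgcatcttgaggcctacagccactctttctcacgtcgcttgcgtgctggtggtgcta
Rpl41 (chr10:128549154-128549268, minus strand): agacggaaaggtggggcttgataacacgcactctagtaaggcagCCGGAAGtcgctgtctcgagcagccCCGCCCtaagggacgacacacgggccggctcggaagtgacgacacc
Mrpl45 (chr11:97315616-97315730, plus strand): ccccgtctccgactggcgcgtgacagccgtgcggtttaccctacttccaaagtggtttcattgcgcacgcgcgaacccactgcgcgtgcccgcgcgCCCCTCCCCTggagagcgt
Mrpl10 (chr11:97041482-97041596, plus strand): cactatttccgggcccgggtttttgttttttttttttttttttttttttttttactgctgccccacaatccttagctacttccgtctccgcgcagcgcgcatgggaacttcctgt
Mrpl49 (chr19:6057741-6057855, minus strand): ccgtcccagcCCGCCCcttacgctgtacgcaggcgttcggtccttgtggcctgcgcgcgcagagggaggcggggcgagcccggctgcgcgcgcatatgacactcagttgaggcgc
Mrps6 (chr16:92058236-92058350, plus strand): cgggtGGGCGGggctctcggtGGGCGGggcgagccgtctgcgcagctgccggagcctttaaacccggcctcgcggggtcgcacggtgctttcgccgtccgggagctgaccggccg
None of the searched motifs occurs in all 8 stretches. GGGCGG occurs in those of Rpl41, Mrpl49 and Mrps6, and those of Rpl27, Rpl5 and Mrpl10 hold no match in this window.

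Over all 75 windows of each class and 20084 windows of autosomal protein-coding genes, the ETS letters CCGGAAG were present in 32.0% of cytosolic, 34.7% of mitochondrial and 11.9% of all windows. AAGATGGC was present in 10.7%, 16.0% and 3.06%, and GCATGCGC in 4.0%, 10.7% and 3.55%. The cAMP element core TGACGT, which also lies inside the full site TGACGTCA, was present in 16.0%, 13.3% and 8.59%, and the full site in 6.67%, 2.67% and 2.30%. CACGTG was present in 10.7%, 9.33% and 7.89%, and GGGCGG in 54.7%, 52.0% and 47.0%. A pyrimidine run, a C within 5 bases of the annotated start followed by at least 4 more pyrimidines on the gene's strand, was present in 42.7% of cytosolic, 22.7% of mitochondrial and 18.8% of all windows. The median GC content was 57.7%, 58.7% and 57.0%, and the median number of CpG sites 21, 21 and 14. A match is a description of letters and not a bound site. The run is shown in capitals for the following 15 bases on either side of the start. They show what a run looks like, so 4 were picked because they have one, and 1 start of each class without a run follows. At Rps19, Rpl5 and Rpl22 no C within 5 bases of an annotated start opened such a run either. Pyrimidine runs that begin further from the start were not searched for, so these genes may hold one there.
Rps6 (chr4:86857353-86857382, minus strand): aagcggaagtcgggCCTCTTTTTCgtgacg
Rps27 (chr3:90213634-90213663, minus strand): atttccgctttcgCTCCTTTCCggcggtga
Rpl22l1 (chr3:28805493-28805522, plus strand): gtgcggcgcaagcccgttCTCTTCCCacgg
Mrpl12 (chr11:120484622-120484651, plus strand): agctcgcctcCTCCCggatagagcgtcgct
Rpl11 (chr4:136053379-136053408, minus strand): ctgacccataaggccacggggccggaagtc
Mrps12 (chr7:28741807-28741836, minus strand): tcactaaggaggaaccccggaaggggctgg
Counted from the first C inside the searched bases, the run spans 10 bases in Rps6, 9 in Rps27, 8 in Rpl22l1 and 5 in Mrpl12. In Mrpl12 the pyrimidines go on before the capitals, because the search began 5 bases before the start.

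The 2 classes had peaks of much the same height. Per kb of peak, the mean level over the 10 libraries had a median of 27.1 CPM in the cytosolic and 28.9 CPM in the mitochondrial class, against 21.9 CPM at the 15561 other autosomal gene-end peaks. At annotated starts alone the medians were 31.3 (53 peaks), 33.3 (64 peaks) and 32.9 CPM per kb (8143 other peaks), so these starts stood at the level of other starts. Member peaks away from an annotated start had lower medians, 10.1 CPM per kb in 17 cytosolic and 15.7 in 18 mitochondrial peaks, and for 23 cytosolic and 11 mitochondrial peaks the gene had no window in the table. The highest cytosolic levels were those of Rpl41 (100 CPM per kb), a very small large-subunit protein, and Rpl37 (99.0), and the lowest those of Rps23rg1 (5.03) and of a peak at the far end of Rpl11 (5.96). In the mitochondrial class they were Mrpl34 (117) and Mrps28 (105), and peaks near Mrps35 (5.02) and at the far end of Mrpl1 (6.89). The classes differed in their surroundings. Of mitochondrial peaks 45 (48.4%) also lay within 1 kb of another protein-coding gene, of cytosolic peaks 25 (26.9%), and of other gene-end peaks 14.1%. Small nucleolar RNAs lay within 26 of the 83 cytosolic genes (31.33%) and 1 of the 78 mitochondrial genes (1.28%), against 1.72% of all genes. The median gene length was 3175 bp, 7690 bp and 17491 bp in the same order of cytosolic, mitochondrial and all genes.

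**Figure D1:**
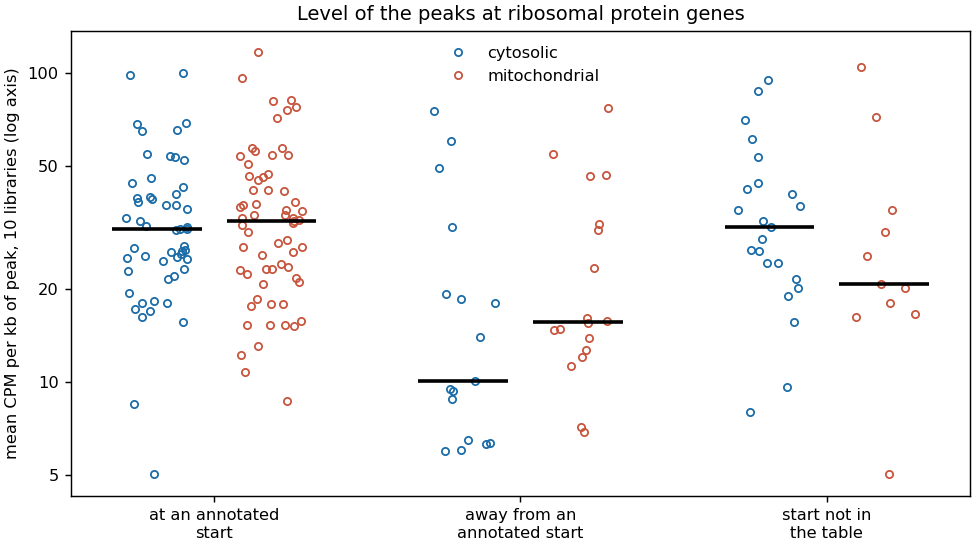
Mean level of each member peak over the 10 libraries in CPM per kb of peak (log axis), split into peaks at an annotated start, away from one, and of genes whose start is not in the table, with cytosolic (blue) and mitochondrial (red) peaks as points and the median as a bar. At starts the medians are 31.3 and 33.3 CPM per kb, and away from starts 10.1 and 15.7.

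Together the member peaks took a share of gene-end accessibility that ran from 1.3% to 1.369% over the libraries. This measure needs no scaling between libraries, because both counts come from the same library. Their counts, as a percentage of those in other gene-end peaks, were 1.337 and 1.34 in the controls, 1.369 and 1.351 after 4 hours of forskolin, 1.324 and 1.315 after 1 day, 1.304 and 1.3 after 3 days, and 1.358 and 1.33 with rosiglitazone. The 4-hour libraries lay above both controls and the 1-day and 3-day libraries below both, while the rosiglitazone libraries fell on either side of the controls. These differences are small beside the share itself, but every treated library, those with rosiglitazone included, lay further from both controls than the controls lay apart. The controls were also the closest pair of any group. The share of all counts that fell in other gene-end peaks is a larger number, so its points cannot be set beside those above. It moved more in proportion to its size: it was 43.5% and 44.9% in the controls, 39.7% and 40.5% at 4 hours, 38.7% and 40.4% at 1 day, 39.9% and 43.4% at 3 days, and 42.6% and 44.1% with rosiglitazone.

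The ratio of mitochondrial to cytosolic counts was close to 1 throughout. It was 0.9944 and 0.9742 in the controls, 0.9606 and 0.9634 at 4 hours, 1.001 and 0.982 at 1 day, 0.978 and 0.9805 at 3 days, and 0.9773 and 0.9807 with rosiglitazone. The 4-hour libraries had the lowest ratios of the 10, with exact binomial 95% intervals of 0.947 to 0.974 and 0.951 to 0.976. These intervals cover counting error only, and they overlap that of control S2 (0.961 to 0.988) but not that of control S1 (0.979 to 1.01). With 2 libraries against 2, a two-sided exact permutation test cannot give a p below 0.333, so the ratios are given as values and no other test was run on them.

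**Figure D2:**
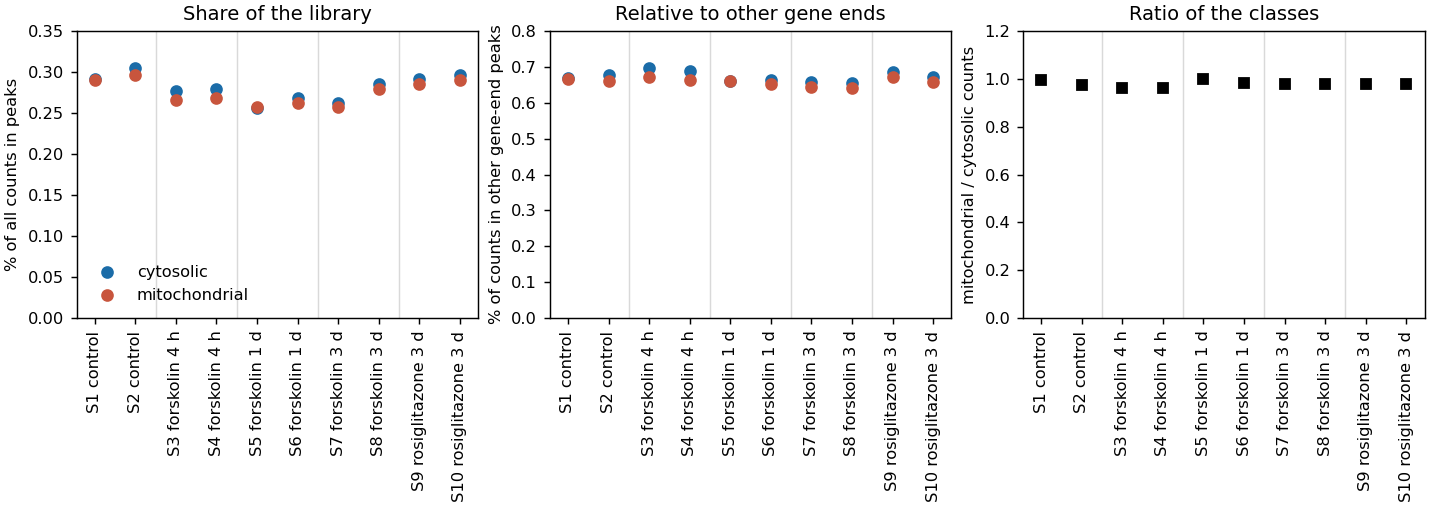
Counts in cytosolic (blue) and mitochondrial (red) ribosomal protein gene peaks for each of the 10 libraries, as a percentage of all counts in peaks (left) and of counts in other gene-end peaks (middle), and the ratio of the classes (right, black squares). The share of the library dips in the forskolin libraries, while the share relative to other gene ends and the ratio stay nearly flat.

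After 4 hours of forskolin, 3 cytosolic peaks rose and 15 fell, and 0 mitochondrial peaks rose and 23 fell, by edgeR's quasi-likelihood test with an adjusted p below 0.05. Over all tested peaks 31.4% were called, and of other gene-end peaks 23.3% fell and 5.66% rose, so the share of cytosolic peaks that fell was below that background and the mitochondrial share near it. That background mixes starts with other gene ends. At annotated starts 12 of 53 cytosolic and 17 of 64 mitochondrial peaks fell, with medians of −0.21 and −0.20 against −0.24 at other starts. Below the lower quartile of other starts (−0.35) lay 11 and 12 of these start peaks, and above the upper quartile (−0.12) 13 and 14. The counts that fell at starts are not set against the mixed background. The median log2 fold change was −0.20 in the cytosolic class, −0.21 in the mitochondrial class and −0.22 at other gene-end peaks, and it became 0.01, 0.01 and 0.00 when the TMM factors were computed on gene-end peaks. Such factors set the typical gene-end peak near 0 by design, and the members are among those peaks. The value near 0 at other gene-end peaks was thus fixed in advance. That scaling moved the median of all peaks from 0.00 to 0.21, and left 3 cytosolic rises and 0 falls, and 5 mitochondrial rises and 5 falls.

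The 3 rises stood apart from the rest. Rpl3, a large-subunit protein at the peptidyl transferase centre, had a peak (chromosome 15, 80075732 to 80077079) outside the lower bound of the gene, which spans 80077781 to 80083406. Its level was 12.3 and 10.4 CPM in the controls, 20.3 and 22.1 at 4 hours, 9.68 and 12.5 at 1 day, 11.6 and 9.51 at 3 days, and 10.7 and 10.6 with rosiglitazone. Both 4-hour libraries lay far above the other 8, and those 8 overlapped. The log2 fold change was 0.90 at 4 hours (SE 0.16, adjusted p = 5.61e-06, edgeR) and −0.93 from 4 hours to 1 day (adjusted p = 1.64e-05), and both calls held in all 16 alternatives. The peak at the opposite bound of Rpl3 (80082885 to 80084079) had 43.5 and 45.1 CPM in the controls and 36.9 and 36.7 at 4 hours (log2 fold change −0.27, adjusted p = 0.0947), so these 2 peaks did not move together. Rpl3 had 3 member peaks. The remaining one, mentioned after its values were seen, was called lower at 1 day, with gene-end scaling too.

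Rpl24, a large-subunit protein at the interface of the subunits, had a small peak (chromosome 16, 55967003 to 55967401) centred 927 bp downstream of its annotated start. Its level was 1.11 and 1.32 CPM in the controls, 2.5 and 4.71 at 4 hours, 3.41 and 2.6 at 1 day, 2.54 and 2.85 at 3 days and 2.14 and 1.85 with rosiglitazone. All 8 treated libraries were above both controls, and the 4-hour pair was wide. The log2 fold changes were 1.56 (adjusted p = 0.000963), 1.29 (0.00992) and 1.13 (0.0454, ended by 9 of 16 alternatives) at 4 hours, 1 day and 3 days by edgeR, and 0.70 with rosiglitazone (0.34). The controls together held only 27 counts there, and the 4-hour call was lost without S4 (1.03, adjusted p = 0.105) and the 1-day call without S1, S2 or S5 (highest adjusted p = 0.119). The start peak of Rpl24, 208 bp from its start, went from 21.8 and 21.2 CPM in the controls to 14.3 and 16.0 at 1 day (−0.50, adjusted p = 0.00706). Its fall did not pass with library size alone (−0.35, adjusted p = 0.0688), with gene-end scaling (−0.24, 0.269) or without S5 (0.111).

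The remaining rise was at the far end of Rps15a, a small-subunit protein (chromosome 7, 118104615 to 118105153), from 3.23 and 1.98 to 4.15 and 4.84 CPM (log2 fold change 0.81, SE 0.308, adjusted p = 0.0371, edgeR). It was lost with DESeq2 (adjusted p = 0.105), with trended offsets (0.0772) and without S2 (0.391), S3 (0.0633) or S4 (0.178). At the start of the same gene the level fell (−0.45, adjusted p = 0.0127), a call not made with DESeq2, library size alone or gene-end scaling.

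The falls at 4 hours lay mostly at starts. A peak beyond the far bound of Mrps18a fell further than those named here (−0.77, adjusted p = 0.00451, edgeR), and its values are given below with those at 3 days. Rpl27, a large-subunit protein whose start sequence is printed above, had 56.0 and 50.9 CPM in the controls and 41.2 and 37.4 at 4 hours (−0.44, SE 0.122, adjusted p = 0.00338). Rpl27a (−0.42, adjusted p = 0.00866) and Rpl7l1 (−0.45, 0.0122) were next in the cytosolic class, and these 3 calls ended with gene-end scaling (−0.23, −0.21 and −0.23). Those on Rpl27 and Rpl27a also ended without S1 (0.0623 and 0.0912) or S4 (0.0799 and 0.0752), and that on Rpl7l1 without S2 (0.326), S3 (0.0651) or S4 (0.0663). In the mitochondrial class Mrps27, a small-subunit protein that binds RNA, went from 39.2 and 39.5 CPM to 27.8 and 26.7 (−0.53, SE 0.127, adjusted p = 0.000664), and this call held in all 16 alternatives. The levels of Mrps6 (−0.53, adjusted p = 0.000491), Mrpl2 (−0.60, 0.000492) and Mrpl14 (−0.58, 0.000749) also fell, and these 3 stayed called with gene-end scaling. The call on Mrps6 ended without S3 (0.0582), that on Mrpl2 without S3 (0.0603) or with DESeq2 (0.0715), and that on Mrpl14 without S2 (0.105).

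**Figure D3:**
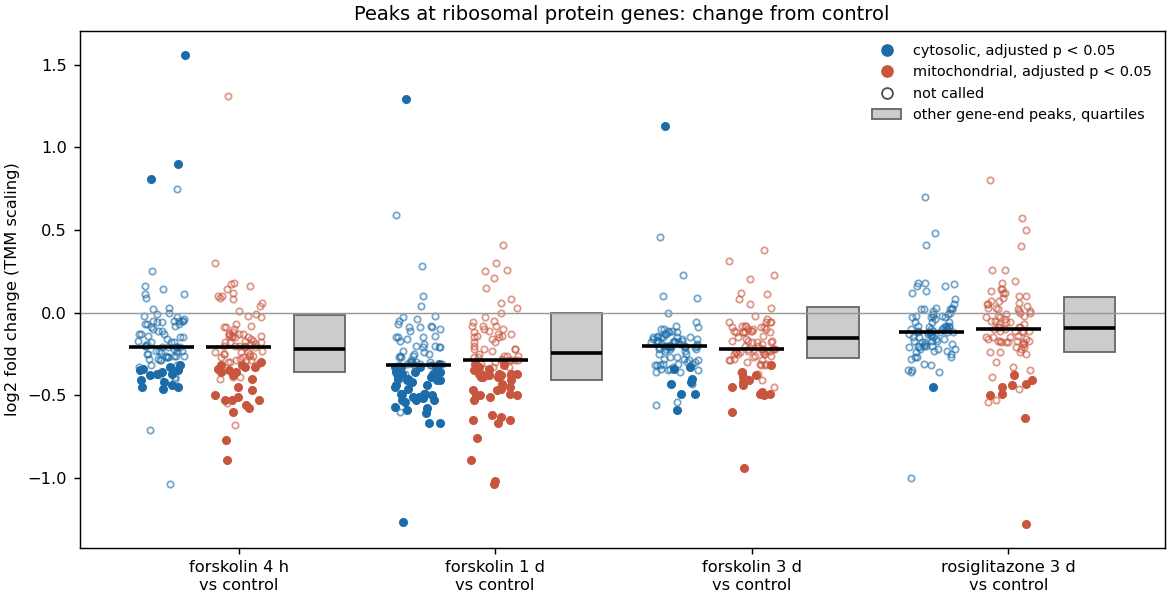
Log2 fold change from control (TMM scaling) of each of the 93 cytosolic (blue) and 93 mitochondrial (red) peaks in 4 comparisons. Filled points have an adjusted p below 0.05, black bars are medians, and grey boxes are the quartiles and median of other gene-end peaks. The highest points are the Rpl24 peak off its start with forskolin, and the lowest with rosiglitazone is the Mrps18a peak at −1.28.

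With TMM scaling, 1 day of forskolin gave the lowest class medians of the 4 treatments, but with gene-end scaling the mitochondrial median was lower at 3 days (−0.06 against −0.03). By edgeR's quasi-likelihood test 1 cytosolic peak rose and 42 fell, and 0 mitochondrial peaks rose and 38 fell, where 22.8% of all peaks were called and 28.9% of other gene-end peaks fell. Since 40.5% of other peaks at annotated starts fell, the start peaks are the fitting background: 31 of 53 cytosolic and 27 of 64 mitochondrial start peaks fell, with 53 of 53 and 61 of 64 fold changes below 0. The median was −0.32 in the cytosolic, −0.29 in the mitochondrial class and −0.25 at other gene-end peaks, and with gene-end scaling −0.05, −0.03 and 0.02, with 2 rises and 8 falls and 1 rise and 9 falls left, all 17 falls being among those of the TMM scaling. Of the 53 cytosolic start peaks 38 lay below the median of other start peaks (−0.30), and of the 64 mitochondrial ones 33. The median over cytosolic starts was −0.37 and over mitochondrial starts −0.31, a gap between classes that is small beside the quartiles of other starts (−0.42 to −0.15). Large- and small-subunit genes, told apart by symbol alone, had the same medians within 0.01 of each other: −0.31 and −0.32 in the cytosolic class and −0.29 and −0.29 in the mitochondrial class.

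Mrpl45, a large-subunit protein of the mitochondrial ribosome near its exit tunnel, had the smallest adjusted p of all members at 1 day. Its start peak (chromosome 11, 97315371 to 97316105) had 29.2 and 31.3 CPM in the controls, 18.6 and 23.3 at 4 hours, 15.1 and 17.5 at 1 day, 19.1 and 25.7 at 3 days, and 23.2 and 21.9 with rosiglitazone. Every treated library was below both controls, and the 1-day pair was lowest. The log2 fold change was −0.89 (SE 0.139, adjusted p = 8.68e-07) and stayed between −1.0 and −0.63 in 16 alternatives, with the call kept in each.

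Mrpl10, a large-subunit protein of the same ribosome, fell at both ends of the gene. Its start peak (chromosome 11, 97041175 to 97041900), shared with Lrrc46, had 23.9 and 27.0 CPM in the controls and 14.7 and 15.4 at 1 day (−0.76, adjusted p = 2.43e-05). The peak near its far end (97048225 to 97048703), named after its values were seen, had 10.2 and 7.44 CPM in the controls and 4.59 and 3.93 at 1 day (−1.04, adjusted p = 0.00031). Both 1-day libraries lay below both controls at either end.

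Mrpl49 shares its start peak with Fau, which encodes a ubiquitin-like protein fused to the cytosolic small-subunit protein S30, so 1 open region serves both classes of ribosome. The peak (chromosome 19, 6057489 to 6058180) had 49.1 and 47.8 CPM in the controls, 35.6 and 35.2 at 4 hours, 27.0 and 34.5 at 1 day, 33.5 and 40.6 at 3 days and 36.8 and 36.3 with rosiglitazone. No treated library reached the controls, and the fold changes were −0.45, −0.65, −0.39 and −0.41 in that order, with adjusted p = 0.00357, 4.99e-05, 0.0258 and 0.0339. The 1-day call held in all 16 alternatives, while the 4-hour, 3-day and rosiglitazone calls ended with gene-end scaling (0.0819, 0.138 and 0.0664). The 3-day call ended in 9 of 16 alternatives and the rosiglitazone call in 8, DESeq2 (0.0578 and 0.0789) and library size alone (0.0605 and 0.0807) among them.

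Mrps6, a small-subunit protein whose start lies beside Slc5a3, the myo-inositol transporter gene, had 65.1 and 73.7 CPM in the controls and 44.6 and 45.7 at 1 day (−0.62, adjusted p = 8.55e-05). It was one of 31 mitochondrial start peaks shared with another gene, of which 19 fell at 1 day (median −0.37), against 8 of 33 unshared ones (−0.22). In the cytosolic class the order was the other way, with 6 of 14 shared (−0.31) and 25 of 39 unshared start peaks falling (−0.37). Another shared start is that of Mrps12, a small-subunit protein of the decoding centre, with Sars2, the mitochondrial seryl-tRNA synthetase. It had 51.0 and 50.9 CPM in the controls and 36.0 and 40.9 at 1 day (−0.41, adjusted p = 0.00935), a call that ended with gene-end scaling (−0.14, 0.326), library size alone (−0.25, 0.0725), trended offsets (−0.16, 0.239) and without S1, S2 or S5.

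Among cytosolic starts, Rpl27 had 33.5 and 33.4 CPM at 1 day (−0.67, SE 0.122, adjusted p = 1.96e-05). The start peak of Rpl23, a large-subunit protein that also binds MDM2, went from 24.5 and 23.7 to 14.5 and 15.8 CPM (−0.67, SE 0.138, adjusted p = 0.00016). Both calls held in all 16 alternatives. Rpl5, which carries the 5S RNA into the large subunit and can stabilize p53, went from 44.4 and 42.3 to 24.8 and 31.8 CPM (−0.61, adjusted p = 0.000198, lost without S5 at 0.0515). Its partner in that complex, Rpl11, had 15.6 and 19 CPM in the controls and 11.7 and 14.4 at 1 day (−0.41, adjusted p = 0.0481), and this call ended in 9 of 16 alternatives, gene-end scaling among them (−0.14, 0.579). Rpl41 went from 71.6 and 74.2 to 49.8 and 51.4 CPM (−0.53, adjusted p = 0.000389), lost with trended offsets (−0.21, 0.0778).

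Several well-known members were not called against the controls at any time in the fit of all libraries with TMM scaling. Rps6, the small-subunit protein that S6 kinase phosphorylates, had 24.4 and 26.0 CPM in the controls and 21.6 and 23.9 at 1 day (−0.15, adjusted p = 0.456). Rps27 (−0.05, 0.822) and its paralog Rps27l (−0.30, 0.0656), and Rpl22 (−0.09, 0.69), were not called at 1 day either. The Rpl22 paralog Rpl22l1 passed at 3 days (−0.34, adjusted p = 0.0407), a call that 13 of 16 alternatives ended. Mrpl33 (−0.33, 0.0757), Mrps18c (−0.33, 0.0507) and Mrpl19 (−0.08, 0.74) did not pass, nor did the higher of the Mrps34 peaks (0.08, 0.737). At 1 day Rps27l and Mrps18c were called with the compared groups alone (0.0325 and 0.026), without S7 (0.0262 and 0.023) and without S8 (0.0257 and 0.0228), and Mrpl33 without S1 (0.0426) or S7 (0.0495). At 4 hours gene-end scaling called Mrpl19 (0.39, 0.0471) and that Mrps34 peak (0.52, 0.00695) higher, and library size alone also called that Mrps34 peak higher. Mrpl12, which also binds the mitochondrial RNA polymerase, went from 36.7 and 35.1 CPM at its start to 24.9 and 30.0 at 1 day (−0.38, adjusted p = 0.0197), a call that 6 of 16 alternatives ended. Of the 3 Mrps18 paralogs, Mrps18b was called at its start at 1 day (−0.47, adjusted p = 0.00229) but not with gene-end scaling (−0.20, 0.0641) or trended offsets (−0.09, 0.484), nor without S2 (0.0954) or S5 (0.0749). Rps19, a small-subunit protein mutated in Diamond-Blackfan anaemia, was called at 1 day (−0.33, adjusted p = 0.0334), with a fold change of 0.02 under trended offsets, and 9 of 16 alternatives ended that call. The Rpl3 paralog Rpl3l, known from striated muscle, has its called peak (−0.33, 0.0381) 3892 bp from its start and beside Msrb1, and 9 of 16 alternatives ended it.

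**Figure D4:**
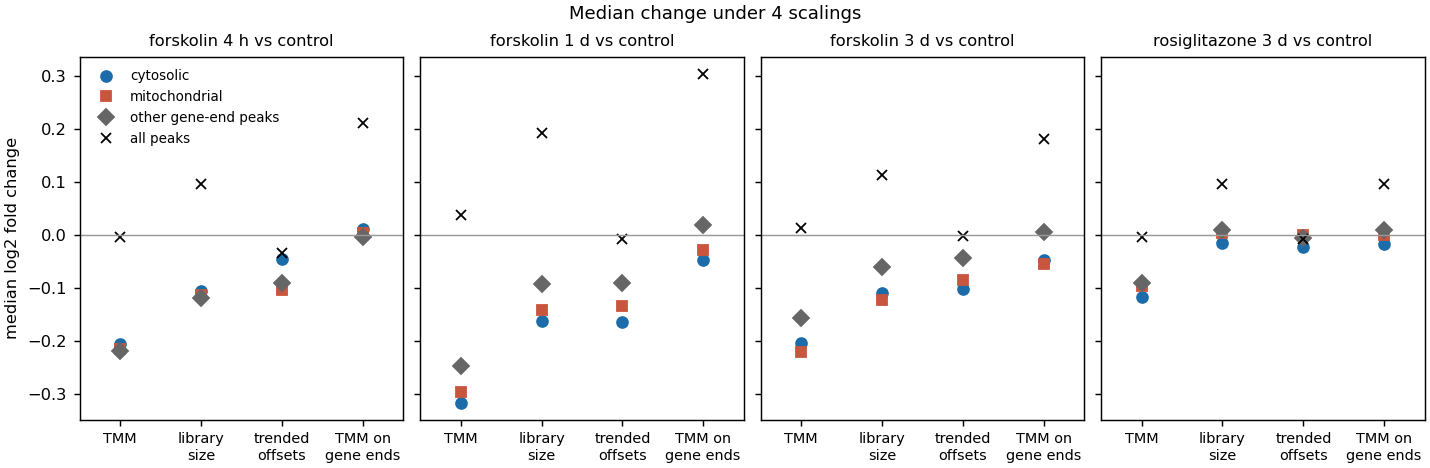
Median log2 fold change from control of cytosolic (blue circles) and mitochondrial (red squares) peaks, other gene-end peaks (grey diamonds) and all peaks (crosses) under 4 scalings, in 4 comparisons. The class medians move with those of other gene-end peaks as the scaling changes, and with TMM factors from gene-end peaks all 3 lie between −0.06 and 0.02. Those factors set the typical gene-end peak near 0 by design.

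After 3 days of forskolin, edgeR called 1 cytosolic rise and 8 falls, and 0 mitochondrial rises and 14 falls, where 13.8% of all peaks were called and 6.95% of other gene-end peaks, starts or not, fell. At annotated starts 6 of 53 cytosolic and 11 of 64 mitochondrial peaks fell, with medians of −0.20 and −0.22 against −0.18 at other starts. Below the lower quartile of other starts (−0.27) lay 16 and 19 of these start peaks, and above the upper quartile (−0.07) 2 and 7. The 6.95% is not a share of starts, so the counts that fell at starts are not set against it. Over all peaks of each class the medians were −0.20 and −0.22, against −0.16 at other gene-end peaks, and −0.05, −0.06 and 0.01 with gene-end scaling, which left 1 cytosolic rise, 0 cytosolic falls and 2 mitochondrial falls. These counts rested on a pair of unlike libraries: without S8, 35 cytosolic and 30 mitochondrial peaks were called, and without S7, 0 and 3. Mrps27 kept a lower level at 3 days, at 26.0 and 30.2 CPM (−0.49, adjusted p = 0.00441), a call that ended only without S7 (0.0704). The 2 falls that remained with gene-end scaling were Mrps27 and a peak beyond the far bound of Mrps18a. That Mrps18a peak (chromosome 17, 46129743 to 46130136) had 7.78 and 10.7 CPM in the controls, 5.07 and 5.8 at 4 hours, 4.75 and 4.38 at 1 day, 5.2 and 4.44 at 3 days and 6.82 and 7.29 with rosiglitazone. All 6 forskolin libraries were below all 4 others, with fold changes of −0.77, −1.02 and −0.94 (adjusted p = 0.00451, 0.000288 and 0.00187), and all 3 calls ended without S2 (0.19, 0.0571 and 0.133). The 4-hour call also ended with gene-end scaling (−0.55, 0.0776) and without S3 (0.0643). The far end of Rps18 (chromosome 17, 33951032 to 33951776), shared with B3galt4, had 14.1 and 15 CPM in the controls and 8.74 and 10.8 at 3 days (−0.59, adjusted p = 0.00894), a call lost with gene-end scaling (−0.43, 0.107) and without S2 (0.094) or S7 (0.177). The lower of the Mrps34 peaks (−0.60, adjusted p = 0.00295), the start of Mrpl11 (−0.50, 0.00551) and the start of Rpl14 (−0.42, 0.0145) also fell, and with gene-end scaling none of these 3 passed (0.0602, 0.0814 and 0.107).

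Rosiglitazone for 3 days changed few member peaks. By edgeR 0 cytosolic peaks rose and 1 fell, and 0 mitochondrial peaks rose and 9 fell, where 6.57% of all peaks were called and 3.78% of other gene-end peaks, starts or not, fell. At annotated starts 1 of 53 cytosolic and 7 of 64 mitochondrial peaks fell, with medians of −0.12 and −0.09 against −0.11 at other starts. Below the lower quartile of other starts (−0.23) lay 13 and 13 of these start peaks, and above the upper quartile (0.02) 7 and 18. The 3.78% is not a share of starts, so the counts that fell at starts are not set against it. Over all peaks of each class the medians were −0.12 and −0.10, against −0.09 at other gene-end peaks, and −0.02, 0.00 and 0.01 with gene-end scaling. The cytosolic call was the start of Rpl24 (−0.45, adjusted p = 0.0474), which 12 of 16 alternatives ended. One mitochondrial peak stood far from the rest. It lies within Mrps18a near its far bound (chromosome 17, 46127643 to 46128335) and had 8.89 and 8.52 CPM in the controls, 8.49 and 10.4 at 4 hours, 10.5 and 9.74 at 1 day, 8.68 and 5.86 at 3 days of forskolin, and 3.72 and 3.46 with rosiglitazone. Both rosiglitazone libraries were below all 8 others. The fold change was −1.28 (SE 0.225, adjusted p = 5.41e-05), between −1.34 and −1.17 in 16 alternatives, with the call kept in each. At the start of Mrps18a (46110599 to 46111262) the level was 7.78 and 10.5 CPM in the controls and 9.3 and 9.7 with rosiglitazone (0.05, adjusted p = 0.928). Mrpl14, a large-subunit protein, fell at its start (−0.64, adjusted p = 0.00157), as did Mrps6 (−0.44, 0.0161) and Mrpl2 (−0.49, 0.0183), and these 3 calls held with gene-end scaling. The call on Mrpl14 ended without S2 (0.151) or S9 (0.0732), that on Mrps6 without S2 (0.225) or S9 (0.24), and that on Mrpl2 with DESeq2 (0.31) and without S2 (0.197), S9 (0.134) or S10 (0.102).

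**Figure D5:**
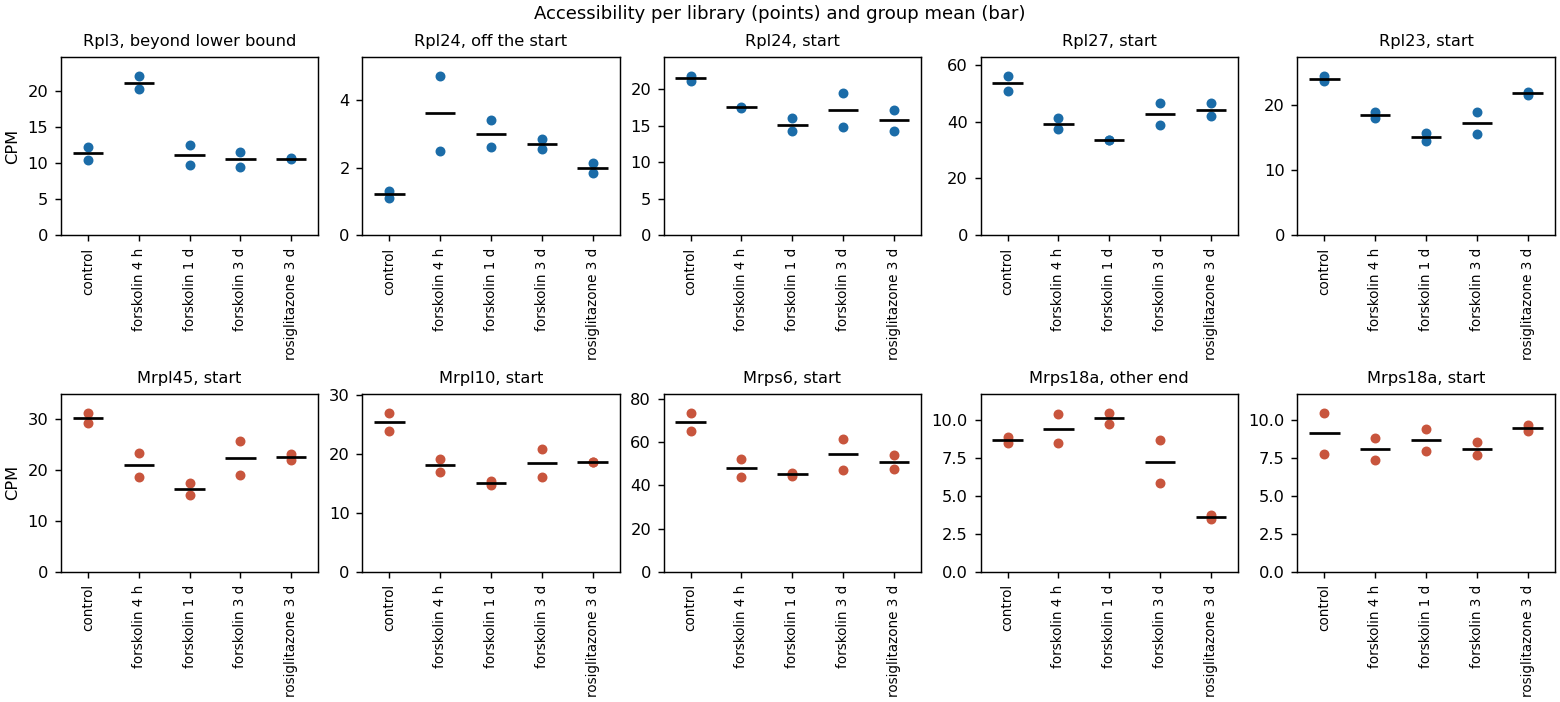
Accessibility in CPM of 10 member peaks in each library (points, 2 per group) with the group mean (bar), cytosolic in blue and mitochondrial in red, on axes that start at 0. The Rpl3 peak beyond its lower bound is high only at 4 hours, the 5 start peaks from Rpl27 to Mrps6 have their lowest group mean at 1 day, and the far-end Mrps18a peak is low with rosiglitazone.

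Forskolin and rosiglitazone at 3 days were also compared directly. Of cytosolic peaks 0 were higher and 3 lower with forskolin, and of mitochondrial peaks 1 was higher and 5 lower, by edgeR, where 21.7% of all peaks and 11.4% of other gene-end peaks were called. The higher one was the Mrps18a peak just described (1.04, adjusted p = 0.000238), and without S7 its adjusted p was 0.0709. Both groups are compared with the same controls above, so those columns of values share libraries. Lower ones were Rps18 at its far end (−0.62, 0.00271), Rpl6 (−0.41, 0.024), Mrpl16 (−0.51, 0.0126), Mrpl30 (−0.38, 0.0286), Mrps27 (−0.35, 0.0316), Mrpl36 (−0.37, 0.0462) and Mrpl50 (−0.32, 0.0493). That on Rps18 ended without S7 (0.0958). With DESeq2 and with gene-end scaling the calls on Rpl6 (0.0775 and 0.0837), Mrpl16 (0.0666 and 0.0531), Mrpl30 (0.0789 and 0.065), Mrps27 (0.068 and 0.0505) and Mrpl36 (0.127 and 0.159) all ended. Without S7 those on Rpl6 (0.166), Mrpl16 (0.314), Mrpl30 (0.229) and Mrps27 (0.229) ended too, as did all 5 without S10 (0.115, 0.156, 0.185, 0.29 and 0.31 for Mrpl36), and those on Rpl6 (0.124), Mrpl30 (0.104), Mrps27 (0.0689) and Mrpl36 (0.0911) without S9. The call on Mrpl36 ended in 10 of 16 alternatives, without S8 at 0.39. Between the forskolin times, 1 day against 4 hours gave 0 rises and 2 falls in the cytosolic class and 1 rise and 2 falls in the mitochondrial class, where 5.57% of all peaks were called. For 3 days against 1 day edgeR called 0 and 0, where 0.187% of all peaks were called. There 15 cytosolic and 14 mitochondrial peaks had an unadjusted p under 0.05, DESeq2 also called 0 and 0, and without S7 12 and 7 were called.

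Genes of related function were read at their own gene ends, from lists chosen with earlier results of these data known. After 1 day of forskolin, of 15 tested peaks at ribosomal proteins outside the symbol rule 1 rose and 8 fell by edgeR (median −0.35). Among them the start peaks of Rplp0 and Rplp2, proteins of the large-subunit stalk, fell by 0.39 and 0.38 (adjusted p = 0.00988 and 0.0278). Of 25 peaks at ribosome biogenesis genes 0 rose and 13 fell (median −0.34), such as the start of Fbl, the nucleolar methyltransferase fibrillarin (−0.66, adjusted p = 3.59e-05). Of 26 at cytosolic translation factors 1 rose and 16 fell (−0.35), such as a start of Eef2, the elongation factor that moves the ribosome (−0.75, 3.26e-06). Of 41 at mitochondrial translation genes 1 rose and 10 fell (−0.22), and of 20 at growth control genes 0 rose and 11 fell (−0.48). In the last list were starts of Nrf1, a transcription factor of nuclear genes for mitochondria (−0.63, 0.000103), and Rptor, the mTOR complex partner (−0.74, 0.000178). The genes named from these lists were not set in advance. In the last list the starts of Gabpa (−0.17, 0.316), Tfam (−0.13, 0.488) and Mtor (−0.30, 0.0581 and −0.23, 0.314) were not called. The other Eef2 start stood at −0.31 (0.0314). The rises were at Ptcd3 (2.87, 0.00086), Eif3f (0.71, 0.011) and Tars2 (1.92, 1.42e-06), each off a start. Beside the 28.9% of other gene-end peaks and the median of −0.25, 4 of these 5 medians were lower and that of mitochondrial translation was not. The same held beside the median of −0.30 at other starts, though the lists mix starts with other ends. The lists overlap with the members and with each other: the Fau peak is the Mrpl49 start peak and the Sars2 peak the Mrps12 start peak, both counted above, and 1 start peak that fell is shared by Ptcd3, in the first list, and Polr1a, in the biogenesis list. No set was tested.

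Start peaks with and without a motif are set side by side here as a description, with no test. At 1 day the median was −0.36 for 20 cytosolic start peaks with CCGGAAG in a window and −0.37 for 33 without, and −0.37 for 25 with the pyrimidine run and −0.34 for 28 without. In the mitochondrial class it was −0.32 for 24 with CCGGAAG and −0.29 for 40 without, and −0.38 for 16 with the run, of which 12 fell, and −0.26 for 48 without, of which 15 fell. With GGGCGG 19 of 33 mitochondrial start peaks fell (−0.33) and without it 8 of 31 (−0.25), and in the cytosolic class 21 of 31 (−0.37) and 10 of 22 (−0.32). With CACGTG 5 of 5 cytosolic start peaks fell (−0.44) and 26 of 48 without it (−0.36), and in the mitochondrial class 2 of 5 (−0.33) and 25 of 59 (−0.31). With AAGATGGC the mitochondrial median was −0.38 in 12 and without it −0.28 in 52, and the cytosolic one −0.35 in 6 and −0.37 in 47. For the cAMP element core the medians were −0.36 in 10 cytosolic and −0.32 in 7 mitochondrial start peaks with it, against −0.37 and −0.31 without it. Across mitochondrial start peaks the level per kb and the 1-day fold change had a Spearman correlation of −0.43 (64 peaks) and across cytosolic ones of −0.022 (53 peaks); peaks of 1 library share its depth and scaling, so these are descriptions.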

How the data were processed

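ATAC-seq was run on 10 libraries in 5 groups of 2. The deposited table holds raw counts per peak, without normalization, with 1 column per library. Per the submitters' processing notes the authors' tools included featureCounts for counting, MACS2, Bowtie2, fastp, deepTools, Picard and SAMtools, with the mouse builds GRCm38 and mm10. Versions, the handling of duplicates, of reads with several matches (which bears on ribosomal protein genes and their many processed copies) and of the transposase offset are not given in the sources used here. The number of per-sample columns tied to no group was 0.

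The members and lists were chosen with earlier results of these data known. Gene bounds and start windows came from RefSeq tables of GRCm38.p6, so only protein-coding genes in them were used; 4 genes of the rule lie on chromosome X and 8 autosomal Rps6k genes were left out. Counts were fitted with edgeR 4.0.16 in R 4.3.3 (TMM factors, filterByExpr, robust quasi-likelihood F-test, all 10 libraries in 1 fit), which tested 118954 peaks, and p-values were adjusted over all of them by the Benjamini-Hochberg method and called below 0.05. CPM are counts over the TMM-scaled library size, times 1e6. Standard errors were derived from the F statistic. The square root of the median dispersion was 0.163. The 16 alternatives for named peaks began with DESeq2 1.42.0, library size alone, trended offsets (loess, span 0.3) and TMM factors from gene-end peaks. The others were no low-count filter, the compared groups alone, and leaving out each library. Windows of 500 and 2000 bp and counts summed per gene are not among the 16. They were used only for the number of calls in each class.

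Named peaks were, in each class, the up to 4 called peaks of smallest adjusted p in each direction whose groups did not overlap, for each treatment and for forskolin against rosiglitazone. One peak that this rule names is not reported here. To these were added a list of known members, and the 2 highest and 2 lowest per kb. Total counts per library, 10410233 to 18935287, set the precision of single peaks.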

Additional observations from a re-analysis of the deposited data

Results flagged for a closer look

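The direct tests between treatments gave the following differences, each as a log2 fold change with edgeR's adjusted p over all peaks, and each was listed because 2 treated groups differed from each other. After 3 days, forskolin against rosiglitazone, the Mrps18a peak within its far end stood at 1.04 (0.000238). Lower with forskolin were the far end of Rps18 (−0.62, 0.00271), Mrpl16 (−0.51, 0.0126), Rpl6 (−0.41, 0.024), Mrpl30 (−0.38, 0.0286), Mrpl36 at its start (−0.37, 0.0462), Mrps27 (−0.35, 0.0316) and Mrpl50 (−0.32, 0.0493). Of forskolin at 1 day against 4 hours, the Rpl3 peak beyond the lower bound stood at −0.93 (1.64e-05), Mrpl21 at −0.41 (0.0417), the far end of Mrpl58 at −0.39 (0.0272) and Rps19bp1 at −0.38 (0.04). The peak upstream of Mrps2 stood at 0.64 (0.0195), with 6.12 and 6.65 CPM at 4 hours and 9.45 and 10.5 at 1 day. Mrpl50, Mrpl21, Mrpl58, Rps19bp1 and Mrps2 are named here because of these values.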

How the results depend on the processing

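No paired analysis was possible because the columns carry no replicate number of the labels. Counts of called peaks are given as cytosolic, then mitochondrial, and the cause of each change was not tested. At 4 hours of forskolin (18 and 23) they were 7 and 14 with library size alone and 3 and 10 with TMM over gene-end peaks, where the cytosolic balance turned to rises. Cytosolic counts there were 9 with DESeq2, 33 with the compared groups alone and 7 with counts summed per gene. At 1 day (43 and 38) the scaling by library totals gave 20 and 16, the trended offsets 20 and 16, and gene-end TMM 10 and 10. At 3 days (9 and 14) they were 5 and 7 with library size, 4 and 7 with trended offsets, 1 (a rise) and 2 with gene-end TMM, 3 and 6 with the compared groups alone, and 0 and 4 per gene, and DESeq2 called 8 mitochondrial peaks. With rosiglitazone (1 and 9) cytosolic counts were 0 with DESeq2, library size, trended offsets, gene-end TMM and per gene, and 3 with the compared groups alone; mitochondrial counts were 3 with DESeq2, 5 with gene-end TMM and 0 per gene. For forskolin against rosiglitazone (3 and 6) they were 9 and 10 with a window of 2000 bp and 0 and 0 per gene, and mitochondrial counts were 2 with the compared groups alone and 1, a rise, with DESeq2 and with gene-end TMM. For 1 day against 4 hours (2 and 3) they were 1 and 1 with DESeq2 and 0 and 0 per gene, and 1 cytosolic with a window of 500 bp.

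Leaving out each library in turn gave 4 to 31 and 7 to 33 at 4 hours, 11 to 55 and 13 to 47 at 1 day, 0 to 35 and 2 to 30 at 3 days, 0 to 3 and 1 to 10 with rosiglitazone, 1 to 9 and 1 to 14 for forskolin against rosiglitazone, 1 to 3 and 0 to 4 for 1 day against 4 hours, and 0 to 12 and 0 to 7 for 3 days against 1 day. With trended offsets Rps19 (0.02) and Mrpl34 (0.04) at 1 day and Rpl37 at 4 hours (0.20) turned from below to above 0. Without the low-count filter all 217 values of named peaks kept direction and call, and with gene-end TMM 158 did.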

Other observations

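Of the members with the lowest adjusted p at 1 day, 3 start peaks (Mrpl10, Mrpl45 and Rpl23) lie within 1 stretch of chromosome 11, from 97041175 to 97782949. This was noticed after the values were seen, and the stretch was drawn around these 3 peaks. They are among its 5 members, so the member medians below were in part set by that choice. The other comparisons use the same peaks and the same controls, so they are not separate evidence. The stretch holds 5 member peaks with a median log2 fold change of −0.76 at 1 day, and 20 other gene-end peaks with a median of −0.35. At 4 hours the medians were −0.50 and −0.23, at 3 days −0.45 and −0.13, and with rosiglitazone −0.43 and −0.11. All other gene-end peaks of chromosome 11 had a median of −0.33 at 1 day.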
